A study of Mus musculus with 4 samples.

Results

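The mouse HoxD cluster holds 9 homeobox genes, Hoxd1, Hoxd3, Hoxd4, Hoxd8, Hoxd9, Hoxd10, Hoxd11, Hoxd12 and Hoxd13, and was examined on chromosome 2 of the mm8 assembly from 74440001 to 74620000. This 180 kb region was cut into 180 tiles of 1 kb, out of 2630709 tiles over chromosomes 1 to 19, X and Y, and Hoxd13 lies on its low-coordinate side and Hoxd1 on its high-coordinate side. The region was set by position, with earlier results of these data known. The data are chromatin immunoprecipitation sequencing (ChIP-seq) libraries from MDER 10T cells, which the labels call fibroblasts and the title describes as carrying a MyoD1 that estrogen can induce. There was 1 library for each of 3 histone H3 modifications, trimethylation of lysine 4 (H3K4me3), of lysine 27 (H3K27me3) and of lysine 9 (H3K9me3), and 1 of whole-cell extract (WCE), the sheared chromatin before immunoprecipitation. All 4 came from the same cells in phenol-red-free medium with 10% serum, and the labels name no hormone treatment. No library measures expression, so the fibroblast label was not checked against marker genes.

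Hox genes encode transcription factors that set position along the body axis, and each cluster is arranged so that genes at its 3′ end, such as Hoxd1, are used earlier and more anteriorly than genes at its 5′ end, such as Hoxd13. Fibroblasts keep much of this positional pattern in culture. H3K4me3 marks the starts of active genes and, over Hox clusters, can cover long stretches. H3K27me3 is laid down by Polycomb repressive complex 2 over silent Hox genes, and H3K9me3 is typical of heterochromatin. Hoxd13, Hoxd12, Hoxd11 and Hoxd10 pattern the distal limbs, the genital bud and the posterior trunk, Hoxd9 and Hoxd8 the trunk, and Hoxd4, Hoxd3 and Hoxd1 act in the hindbrain and neck region.

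RefSeq lists the genes of this stretch, by start, as Hoxd13, Hoxd12, Hoxd11, Hoxd10, Hoxd9, Hoxd8, Hoxd3, Hoxd4 and Hoxd1, with Evx2 as the nearest protein-coding neighbour beyond Hoxd13 and Mtx2 next to Hoxd1. Hoxd3 comes before Hoxd4 in this order because its listed transcript begins upstream of Hoxd4. That table is for GRCm38.p6, another assembly than that of the reads, so the order of the genes is used here and no tile is assigned to a single gene.

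All 9 genes had promoter sequence in the RefSeq table. Their 10 listed starts differed widely in CG dinucleotides, which are concentrated in the promoters where both H3K4me3 and H3K27me3 are usually found. Within the 250 bases before the start, CG counts ran from 2 to 31, against a median of 6 over 32841 promoters of the same length, and 7 of the 10 starts were above that median. The 3 sequences below are the outermost genes, Hoxd13 with 31 CG and Hoxd1 with 24, and Hoxd4, which with 3 has the fewest among genes with a single listed start. Each is the + strand, 5′ to 3′, with CG in capitals.
Hoxd13 (GRCm38.p6 chr2:74667975-74668224): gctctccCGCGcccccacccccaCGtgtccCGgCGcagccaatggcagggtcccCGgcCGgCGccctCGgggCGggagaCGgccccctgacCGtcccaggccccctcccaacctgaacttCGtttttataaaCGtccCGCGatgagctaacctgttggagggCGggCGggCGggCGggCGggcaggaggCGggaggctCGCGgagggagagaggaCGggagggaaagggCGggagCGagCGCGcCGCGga
Hoxd4 (GRCm38.p6 chr2:74721728-74721977): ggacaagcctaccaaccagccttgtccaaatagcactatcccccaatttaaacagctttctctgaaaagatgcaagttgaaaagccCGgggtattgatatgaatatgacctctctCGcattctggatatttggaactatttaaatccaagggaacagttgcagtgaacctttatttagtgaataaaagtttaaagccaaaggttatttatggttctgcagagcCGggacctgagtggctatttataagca
Hoxd1 (GRCm38.p6 chr2:74762730-74762979): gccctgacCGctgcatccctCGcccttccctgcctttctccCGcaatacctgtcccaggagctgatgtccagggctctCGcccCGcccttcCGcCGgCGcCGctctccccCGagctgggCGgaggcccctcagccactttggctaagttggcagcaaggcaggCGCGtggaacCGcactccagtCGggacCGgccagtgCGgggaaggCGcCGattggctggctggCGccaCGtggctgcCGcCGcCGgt

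The GC content of these windows was 74.4% for Hoxd13, 71.6% for Hoxd1 and 40.4% for Hoxd4, against a median of 52.4%. Hoxd10 and the second listed start of Hoxd11 had 20 CG each, Hoxd9 had 13, Hoxd3 had 12, Hoxd12 had 10 and Hoxd8 had 6. The first listed start of Hoxd11 had 2. The letters CAGCTG, a form of the E-box that MyoD can bind and the same on both strands, were in none of the 10 windows and in 13.0% of all promoters. These coordinates belong to GRCm38.p6 and cannot be set against the mm8 positions of the reads given in the rest of the text.

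Depth was similar for 3 libraries and lower for H3K9me3. Reads with 1 reported position numbered 2335857 to 3339861 per library, repeated positions made up 5.92 to 8.40% of them, and the collapsed autosomal totals used for scaling were 3086567 (H3K4me3), 2933567 (H3K27me3), 2101444 (H3K9me3) and 2977697 (WCE). The HoxD region held 1589 H3K4me3, 851 H3K27me3, 380 H3K9me3 and 465 WCE reads. A tile of the region held a median of 2 WCE reads and at most 9, and 1 tile, from 74463001 to 74464000, had no read in any library. A ratio divides mark reads by WCE reads, each first divided by the autosomal total of its library. The 95% intervals are exact (Clopper-Pearson) and cover counting error only, since amplified reads are not independent molecules. With 1 library a group, every test compares 2 libraries and has no replicate check.

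Over the whole region, H3K4me3 stood at 3.30 times WCE (2.97 to 3.66), H3K27me3 at 1.86 times (1.66 to 2.08) and H3K9me3 at 1.16 times (1.01 to 1.33). Among 11549 windows of 180 kb with at least 100 WCE reads, 18 had a higher H3K4me3 ratio, 321 a higher H3K27me3 ratio and 1934 a higher H3K9me3 ratio, and the median ratios were 0.683, 0.867 and 0.9496. The neighbouring 180 kb on either side did not share the H3K4me3 and H3K27me3 levels of the region. On the low-coordinate side, beyond Hoxd13, H3K4me3 was at 0.995 times WCE (0.835 to 1.18) and H3K27me3 at 1.07 times (0.903 to 1.28), and on the high-coordinate side 1.05 (0.906 to 1.22) and 1.003 (0.861 to 1.17).

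**Figure D1:**
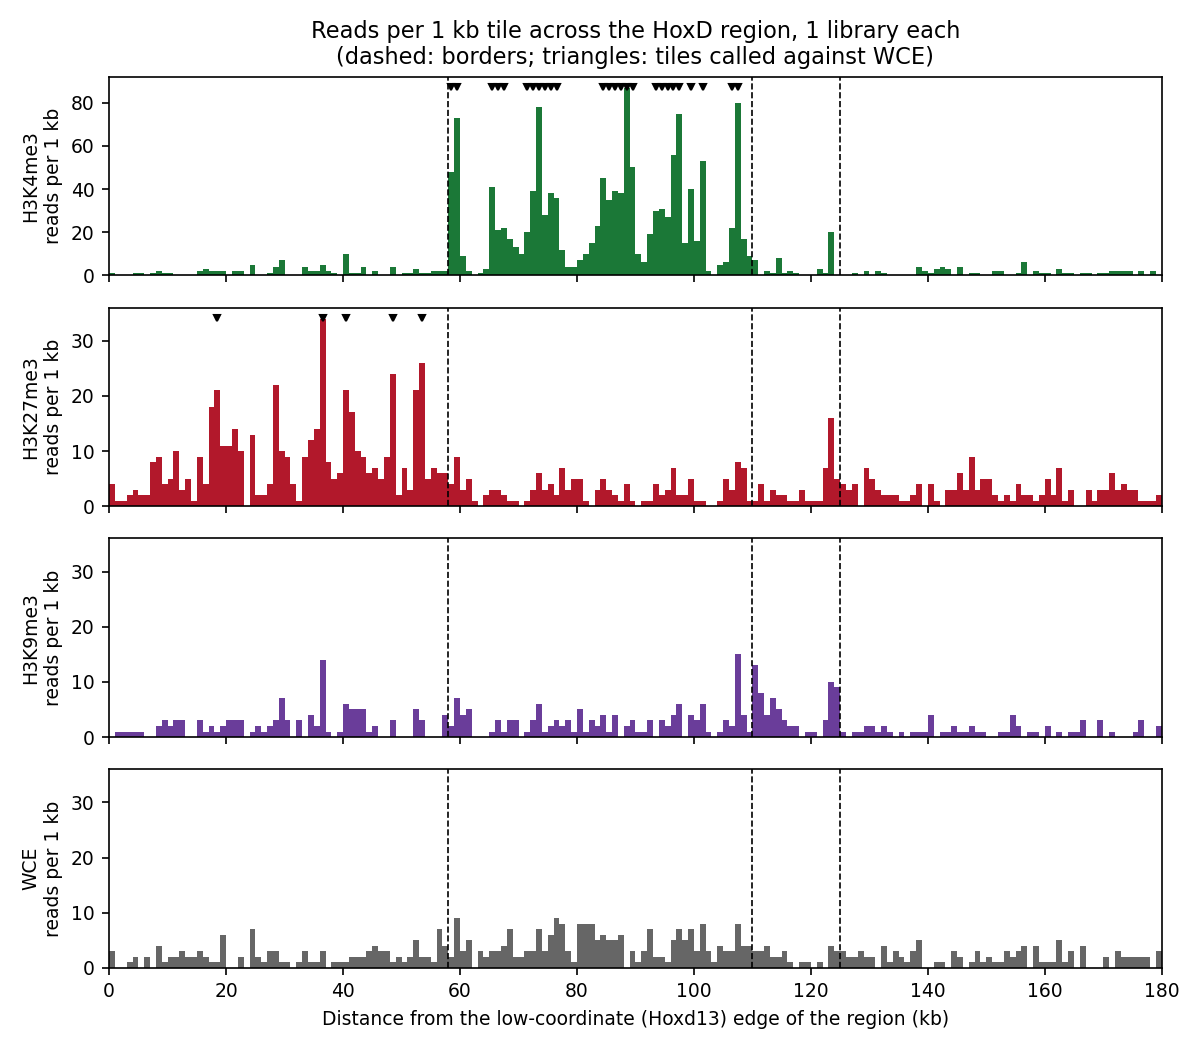
Reads in each 1 kb tile (y axis) of the H3K4me3, H3K27me3, H3K9me3 and WCE libraries against the distance in kb from the Hoxd13 edge of the region (x axis), with 1 library each and a taller y axis for H3K4me3. Dashed lines are the 3 borders at 58, 110 and 125 kb and triangles are tiles called against WCE: H3K27me3 fills the left of the first border and H3K4me3 the space between the first and the second.

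The 2 main marks divided the region. Tiles called against WCE for H3K27me3 lay on the Hoxd13 side and those called for H3K4me3 lay in the middle. On the Hoxd1 side no tile was called for either mark. There, 1 tile shortly before the last border held 20 H3K4me3 and 16 H3K27me3 reads. The 10 kb blocks from 74560001 and 74580001 on that side were called for H3K27me3, at 2.44 and 3.13 times WCE. A segmentation of the 4 libraries' read counts placed 3 borders, at 74498001, 74550001 and 74565001, which give a low-coordinate segment of 58 kb, an H3K4me3 segment of 52 kb, the third segment of 15 kb and a high-coordinate segment of 55 kb. The third border is the least certain: positions from 74557001 to 74565001 came within 2 log-likelihood units of it, and with all repeated reads kept it lay at 74558001. It was not found with 3 times the penalty or from H3K4me3 and H3K27me3 alone, so the length of the third segment is not settled. The borders were read from the same reads as the values, so the values of the segments are a description.

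The low-coordinate segment, at the Hoxd13 end, carried H3K27me3. It held 504 H3K27me3, 91 H3K4me3, 119 H3K9me3 and 115 WCE reads, which puts H3K27me3 at 4.45 times WCE (3.63 to 5.50), H3K4me3 at 0.763 times (0.573 to 1.01) and H3K9me3 at 1.47 times (1.13 to 1.91). The H3K4me3 ratio became 1.34 when scaled by the median of 100 kb bins, so no loss of H3K4me3 is read from it. It contained 59.2% (55.8 to 62.5%) of the H3K27me3 reads of the whole region. H3K27me3 was spread over most of the segment, with reads in 57 of 58 tiles and a lowest, median and highest tile of 0, 7 and 34 reads. The first 7 kb, chosen after the tiles were seen, held 15 H3K27me3 and 8 WCE reads, 2.14 and 1.14 per kb, against 8.69 and 1.98 per kb over the segment. Their ratio, 1.90 (0.757 to 5.18), has an interval that includes the ratio of the segment.

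H3K27me3 was called against WCE in 5 of 177 tested tiles (one-sided exact binomial test, Benjamini-Hochberg adjusted p under 0.05 over all tiles of the genome and a ratio of at least 2), or 2.82%, where 0.0418% of tested tiles were called genome-wide. All 5 lay in the low-coordinate segment, and no 2 of them adjoined. The tile at 74476001 held the most H3K27me3 reads of the region, 34, with 3 WCE, 14 H3K9me3 and 5 H3K4me3 reads (ratio 11.5, 3.62 to 58.5). The tile at 74488001 held 24 H3K27me3 and 1 WCE read (24.4, 3.97 to 1002), and that at 74493001, 5 kb before the first border, held 26 and 2 (13.2, 3.30 to 115). The tiles at 74458001 and 74480001 each held 21 and 1 (21.3, 3.43 to 882). The tile at 74457001, beside a called one, came near the threshold, with 18 H3K27me3 reads and 1 WCE read where 19 H3K27me3 reads were needed. The tiles at 74481001 and 74492001, also beside calls, were further from it. They held 17 and 21 H3K27me3 reads with 2 and 5 WCE reads, where 22 and 29 H3K27me3 reads were needed. The other tiles next to a call held 2 to 14, and the call at 74488001 had 9 and 2 reads beside it. The width of the 5 intervals comes from the 1 to 3 WCE reads behind each.

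Few tiles could pass at this depth. A tile with 2 WCE reads needed 22 H3K27me3 reads to be called and one with 1 WCE read needed 19. At an unadjusted p under 0.05, 27 of 177 tiles (15.3%) passed, against 1.67% of the genome. The median tile held 3 H3K27me3 and 2 WCE reads in the region and 0 and 1 over the genome. These shares are therefore not matched for read depth. The count of called tiles ran from 0 with 500 bp tiles to 47 against a uniform background. Blocks of 10 kb, set by a fixed grid, gave more reads per test. There H3K27me3 was called in 8 of 18 blocks, 44.4%, against 2.75% of tested blocks genome-wide, and in 5 blocks at an adjusted p under 0.01.

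The 6 blocks from 74440001 to 74500000, which adjoin, were all called for H3K27me3. Their ratios were 2.81 (1.46 to 5.78) in the first block, 3.68 (2.32 to 6.05) in the second, 4.70 (2.84 to 8.18) in the third, 8.63 (4.73 to 17.2) in the fourth, 4.85 (3.08 to 7.98) in the fifth and 2.73 (1.83 to 4.14) in the sixth, which crosses the first border. The fourth, from 74470001, held 102 H3K27me3 and 12 WCE reads, and 99.98% of the blocks in the genome with at least 10 WCE reads had a lower ratio. The intervals of adjoining blocks overlap, so their order is not resolved, while those of the fourth and the sixth block do not overlap. Of 4397 runs of called H3K27me3 blocks in the genome, 48 were longer than these 60 kb and 31, with this one, had that length.

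**Figure D2:**
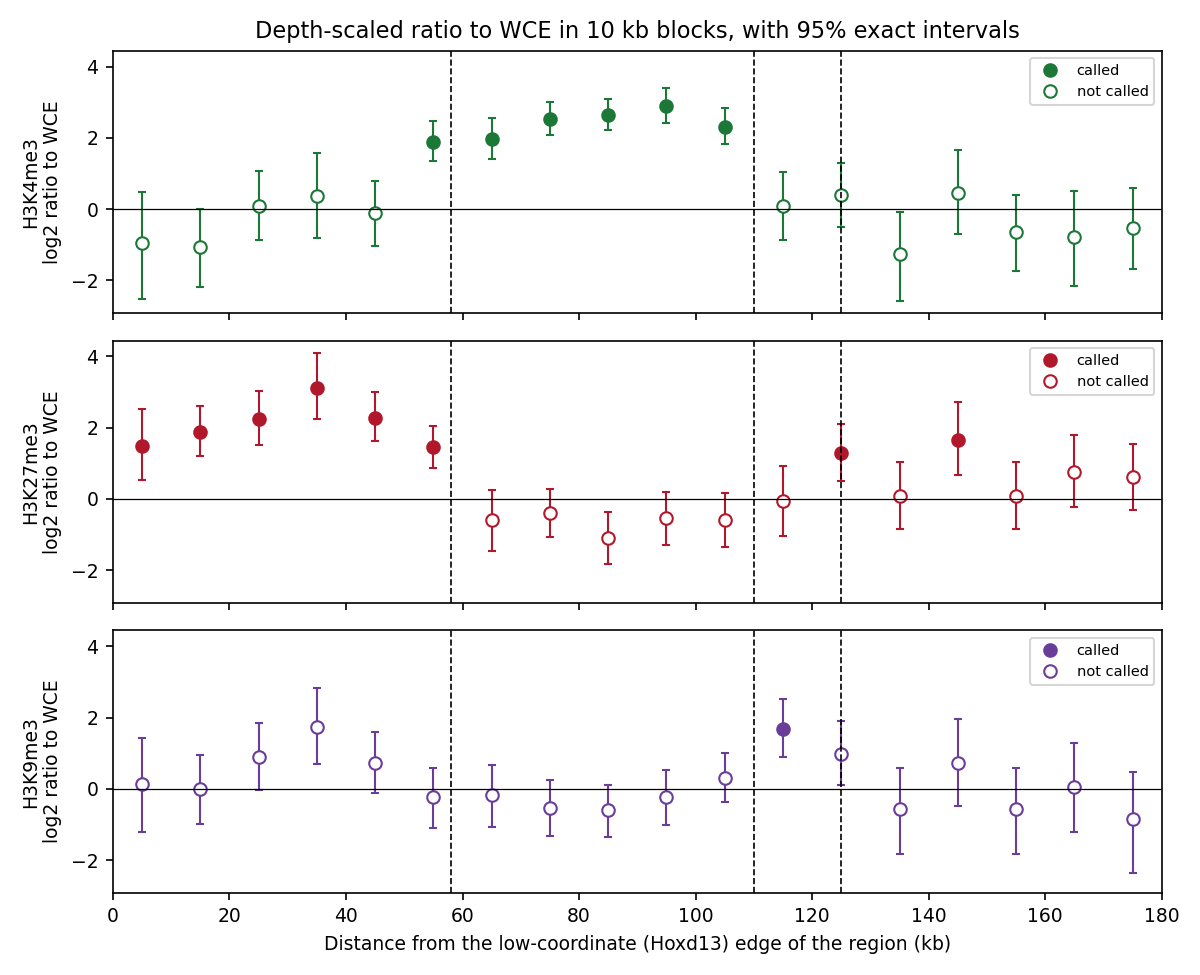
Ratio to WCE on a log2 scale (y axis) for H3K4me3, H3K27me3 and H3K9me3 in the 18 blocks of 10 kb against the distance in kb from the Hoxd13 edge (x axis), with 95% exact intervals and dashed lines at the borders. Filled points passed the test: the first 6 blocks and those from 74560001 and 74580001 for H3K27me3, the sixth to the eleventh for H3K4me3 and 1 block, just beyond the second border, for H3K9me3.

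H3K9me3 reads in the low-coordinate segment were at 1.47 times WCE, and they were unevenly placed. The block from 74470001, which had the highest H3K27me3 ratio, also had the highest H3K9me3 ratio of the region, 3.31 (1.63 to 7.14) from 28 H3K9me3 and 12 WCE reads, but it was not called (exact binomial test, adjusted p = 0.0899). In that block the 12 WCE reads are the joint lowest count of the 18 blocks, and these reads are in both ratios. Over the 58 tiles of the segment, H3K27me3 reads correlated with H3K9me3 reads with r = 0.65 and with H3K4me3 reads with r = 0.59, and with WCE reads with r = 0.15. H3K9me3 reads correlated with WCE reads with r = 0.07. The tile at 74476001 held the most reads of the segment for both H3K27me3 (34) and H3K9me3 (14), and r without it was not computed. Tiles share their base composition and mappability across libraries and are not replicates, and what the correlations come from was not tested.

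The H3K4me3 segment, in the middle of the region, carried H3K4me3 over 52 kb. It held 1387 H3K4me3, 147 H3K27me3, 136 H3K9me3 and 223 WCE reads, which puts H3K4me3 at 6.0 times WCE (5.21 to 6.94), H3K27me3 at 0.669 times (0.540 to 0.828) and H3K9me3 at 0.864 times (0.693 to 1.07). It contained 87.3% (85.5 to 88.9%) of the H3K4me3 reads of the region. H3K4me3 density was 26.7 reads per kb there, 1.57 in the low-coordinate segment and 1.18 in the high-coordinate segment, which is 17.0 times (13.7 to 21.3) and 22.6 times (17.6 to 29.4) as much.

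WCE was denser in the H3K4me3 segment too, at 4.29 reads per kb against 1.98 in the low-coordinate and 1.80 in the high-coordinate segment, 2.16 times (1.72 to 2.73) and 2.38 times (1.87 to 3.05). This raises the denominator of every ratio there. By density, H3K27me3 in the H3K4me3 segment was 0.325 times (0.269 to 0.392) that of the low-coordinate segment and 1.03 times (0.815 to 1.301) that of the high-coordinate segment. The H3K27me3 ratio was thus below 1 in a segment with denser WCE and about the H3K27me3 density of the Hoxd1 side. Scaled by the median of 100 kb bins, this ratio was 0.830 (0.669 to 1.03). What lowers it was not tested.

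H3K4me3 was called in 26 of 169 tested tiles, 15.4%, against 1.19% genome-wide, and all 26 lay in the H3K4me3 segment. These tiles formed 8 runs, which held 83.1% (81.0 to 85.0%) of the H3K4me3 reads of the segment. The 2 longest had 6 tiles each. The first, from 74511001 to 74517000, held 239 H3K4me3 and 31 WCE reads (7.44, 5.10 to 11.2), and the second, from 74524001 to 74530000, held 294 and 25 (11.3, 7.53 to 17.8). A run of 5 tiles from 74533001 to 74538000 held 219 and 17 (12.4, 7.59 to 21.7), and one of 3 tiles from 74505001 to 74508000 held 84 and 10 (8.10, 4.20 to 17.5). The outermost runs, of 2 tiles each, sat at the ends of the segment, from 74498001 to 74500000 with 121 and 11 reads (10.6, 5.72 to 21.8) and from 74546001 to 74548000 with 102 and 11 (8.95, 4.79 to 18.5).

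Single tiles varied from 0 to 87 H3K4me3 reads within the segment, with a median of 20.5. The tile at 74528001 held 87 H3K4me3 and 0 WCE reads, at least 28.0-fold higher when 3 WCE reads are taken as the floor (exact lower bound 22.3 with the counting error of both). The tile at 74498001, the first beyond the border, held 48 and 2 (23.2, 6.07 to 197). Those at 74529001 and 74534001 held 50 and 3 (16.1, 5.19 to 80.6) and 31 and 2 (14.95, 3.805 to 129), and that at 74535001 held 27 and 1 (26.05, 4.29 to 1066).

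Between the runs H3K4me3 dropped to low values in 3 troughs, which were chosen after the tiles were seen. From 74500001 to 74505000 there were 15 H3K4me3 and 13 WCE reads (1.11, 0.494 to 2.54), from 74517001 to 74522000 there were 37 and 28 (1.27, 0.759 to 2.16), and from 74542001 to 74546000 there were 13 and 11 (1.14, 0.471 to 2.81). H3K27me3 was not high in them, at 11, 21 and 6 reads. The 3 troughs still held 3.0, 7.4 and 3.25 H3K4me3 reads per kb, against 1.57 in the low-coordinate and 1.18 in the high-coordinate segment. Other gaps between called runs were shallower. The uncalled tile at 74523001 held 23 H3K4me3 and 5 WCE reads, where 24 H3K4me3 reads were needed. H3K4me3 was thus uneven along the segment, the division into runs depends partly on the threshold, and the 3 troughs were not filled by H3K27me3.

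In blocks of 10 kb, H3K4me3 was called in 6 of 18, 33.3%, against 4.44% genome-wide, and these 6 adjoin from 74490001 to 74550000. Their ratios were 3.69 (2.53 to 5.52), 3.89 (2.62 to 5.92), 5.77 (4.19 to 8.09), 6.24 (4.67 to 8.47), 7.45 (5.35 to 10.6) and 4.94 (3.52 to 7.09). Of 9087 runs of called H3K4me3 blocks in the genome, 6 were longer than 60 kb and 8, with this one, had that length. The highest of the 6, from 74530001, held 309 H3K4me3 and 40 WCE reads and lay above 99.3% of blocks, a lower rank than that of the H3K27me3 block at 74470001.

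The 2 marks were also read directly against each other, without WCE. In a two-sided exact binomial test H3K4me3 was higher than H3K27me3 in 31 of 176 tested tiles, 17.6%, against 1.37% genome-wide, and H3K27me3 was higher in 10 tiles, 5.68%, against 0.179%. All 31 lay in the H3K4me3 segment and all 10 in the low-coordinate segment. The segments were fitted to these same reads, so this match is no separate check of the division. Scaled by the median of 100 kb bins, H3K27me3 was higher in 3 tiles. H3K4me3 over H3K27me3 was 8.97 (7.56 to 10.7) in the H3K4me3 segment, 0.172 (0.136 to 0.215) in the low-coordinate segment and 0.409 (0.301 to 0.551) in the high-coordinate segment. The longest run with H3K4me3 higher was 8 tiles, from 74522001 to 74530000, with 332 H3K4me3 and 19 H3K27me3 reads. The longest with H3K27me3 higher was 2 tiles, reached from 74457001 to 74459000 (39 H3K27me3 and 4 H3K4me3 reads) and from 74492001 to 74494000 (47 and 4).

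At the first border, between H3K27me3 and H3K4me3, the rise of H3K4me3 was sharp. In the 5 kb before 74498001 there were 50 H3K27me3, 8 H3K4me3 and 16 WCE reads, and in the 5 kb after it 22 H3K27me3, 132 H3K4me3 and 19 WCE reads. Of the 50 H3K27me3 reads, 26 lay in the tile at 74493001. The tiles from 74494001 to 74498000 held 5, 7, 6 and 6 H3K27me3 reads, and those from 74498001 to 74502000 held 4, 9, 3 and 5. The fall of H3K27me3 was thus not placed as closely as the rise of H3K4me3. No other tile edge came within 2 log-likelihood units of 74498001. Read by read over 10 kb on each side, the share of H3K4me3 among all reads changed at 74497800, with a support range of 74497763 to 74498037, or 274 bp. Before that point 15 of 161 reads were H3K4me3 (9.32%) and after it 222 of 314 (70.7%). Sonicated fragments had a mean of 500 bp and the sequenced inserts 50 to 200 nt, so a range of this width is near the size of the fragments.

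The last 4 kb before the border, from 74494001 to 74498000 and chosen after the tiles were seen, held 24 H3K27me3, 7 H3K4me3 and 14 WCE reads, an H3K27me3 ratio of 1.74 (0.864 to 3.64). They had 6.0 H3K27me3 reads per kb against 8.69 over the segment, whose median tile held 7, and WCE there was 3.5 per kb against 1.98. None of these 4 tiles was called for either mark, and uncalled stretches of at least 4 tiles also lay between other H3K27me3 calls of the segment. The block from 74490001 to 74500000 was the only one of 18 called for both marks, with 134 H3K4me3, 94 H3K27me3 and 35 WCE reads. Of its tiles, the 2 called for H3K4me3 and the 1 called for H3K27me3 were different tiles on opposite sides of the border, and no tile of the region was called for 2 marks. Genome-wide, 342 blocks were called for both.

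**Figure D3:**
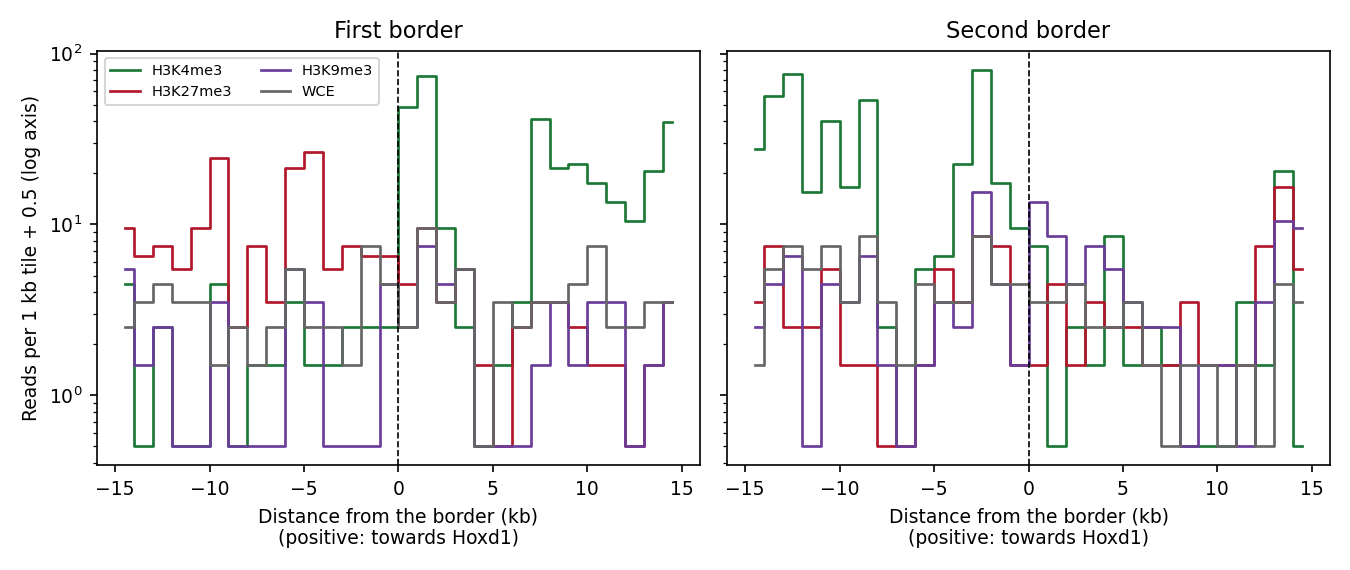
Reads per 1 kb tile plus 0.5 on a log axis (y axis) against the distance in kb from the first and from the second border (x axis, positive towards Hoxd1), with 1 line per library. At the first border H3K4me3 rises from 8 reads in the 5 kb before to 132 in the 5 kb after, and at the second it falls from 134 to 18 while H3K9me3 goes from 25 to 37.

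The second border ended the H3K4me3 segment on the Hoxd1 side. The 5 kb before 74550001 held 134 H3K4me3, 24 H3K27me3, 25 H3K9me3 and 22 WCE reads, and the 5 kb after it 18, 11, 37 and 14. By single reads the change lay at 74550323, with a support range of 74549530 to 74550445, or 915 bp, and the share of H3K4me3 fell from 66.8% of 319 reads to 18.8% of 101. The support range was wider than at the first border, and H3K27me3 was not high on either side of it. The region therefore had H3K27me3 against H3K4me3 at 1 border only, the one nearer Hoxd13.

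Beyond the second border, the third segment held more H3K9me3 than the rest of the region. Its 15 kb had 68 H3K9me3, 46 H3K4me3, 49 H3K27me3 and 28 WCE reads, with H3K9me3 at 3.44 times WCE (2.19 to 5.55), H3K27me3 at 1.78 times (1.09 to 2.94) and H3K4me3 at 1.58 times (0.970 to 2.63). H3K9me3 density was 4.53 reads per kb, against 2.62 in the H3K4me3 segment, 2.05 in the low-coordinate and 1.04 in the high-coordinate segment. The block from 74550001 to 74560000, with 45 H3K9me3 and 20 WCE reads, had a ratio of 3.19 (1.84 to 5.70) and was the only 1 of 18 (5.56%) called for H3K9me3 (exact binomial test, adjusted p = 0.00841), where 0.164% of blocks were called genome-wide. With WCE replaced by the larger of the block and its 100 kb mean, the ratio was 2.06 and the call was lost (exact binomial test, adjusted p = 0.481). Its H3K4me3 and H3K27me3 ratios were 1.06 (0.553 to 2.05) and 0.964 (0.487 to 1.90).

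No 1 kb tile of the region was called for H3K9me3 by the exact binomial test (0 of 173 tested, with 0.00117% called genome-wide), and 10 passed an unadjusted p under 0.05, or 5.78% against 1.26% of the genome. The median tile held 1 H3K9me3 read in the region and 0 over the genome, so these shares too are not matched for read depth. A tile with 3 WCE reads needed 24 H3K9me3 reads to be called, and the highest tile of the region held 15, at 74547001, which also held 80 H3K4me3 and 8 WCE reads. H3K9me3 reads of the third segment were densest at its ends, in places chosen after the tiles were seen, but the intervals of the ratios there and between them overlap. From 74550001 to 74556000 there were 40 H3K9me3 and 17 WCE reads (3.33, 1.85 to 6.27), and from 74563001 to 74565000 there were 19 and 7 (3.85, 1.55 to 10.8). The 7 kb between them held 9 H3K9me3 and 4 WCE reads (3.19, 0.890 to 14.2), 1.29 and 0.571 per kb.

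The tile at 74563001, on the Hoxd1 side and also chosen after its values were seen, was raised for all marks. It held 20 H3K4me3, 16 H3K27me3, 10 H3K9me3 and 4 WCE reads, ratios of 4.82 (1.62 to 19.4), 4.06 (1.31 to 16.7) and 3.54 (1.02 to 15.5). None was called, and its adjusted p for H3K4me3 was 0.0831 (exact binomial test). It was the only tile outside the H3K4me3 segment with more than 10 H3K4me3 reads. The block that contains it, from 74560001, was called for H3K27me3 with 48 H3K27me3 and 20 WCE reads (2.44, 1.42 to 4.33). Reads pooled over cells and alleles do not show whether marks in 1 tile lie on the same chromosomes.

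The high-coordinate segment, from 74565001 to the end of the region, held some H3K27me3. Its 55 kb had 151 H3K27me3, 65 H3K4me3, 57 H3K9me3 and 99 WCE reads, an H3K27me3 ratio of 1.55 (1.19 to 2.02). H3K4me3 was at 0.633 times WCE (0.456 to 0.875) and H3K9me3 at 0.816 times (0.578 to 1.14). The H3K4me3 ratio became 1.11 when scaled by the median of 100 kb bins, so no loss of H3K4me3 in this segment is read from it. No tile there was called, but the block from 74580001 was called for H3K27me3 with 37 H3K27me3 and 12 WCE reads (3.13, 1.60 to 6.59), and its 12 WCE reads are again the joint lowest count of the 18 blocks. H3K27me3 density in this segment was lower than in the low-coordinate segment, which had 3.17 times as much (2.63 to 3.82). In reads per kb, the weak H3K27me3 signal at the Hoxd1 end was about as dense as inside the H3K4me3 segment (2.75 and 2.83). Against WCE, which was denser in the H3K4me3 segment, the ratio of 1.55 at the Hoxd1 end was above the 0.669 (0.540 to 0.828) of the H3K4me3 segment.

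**Figure D4:**
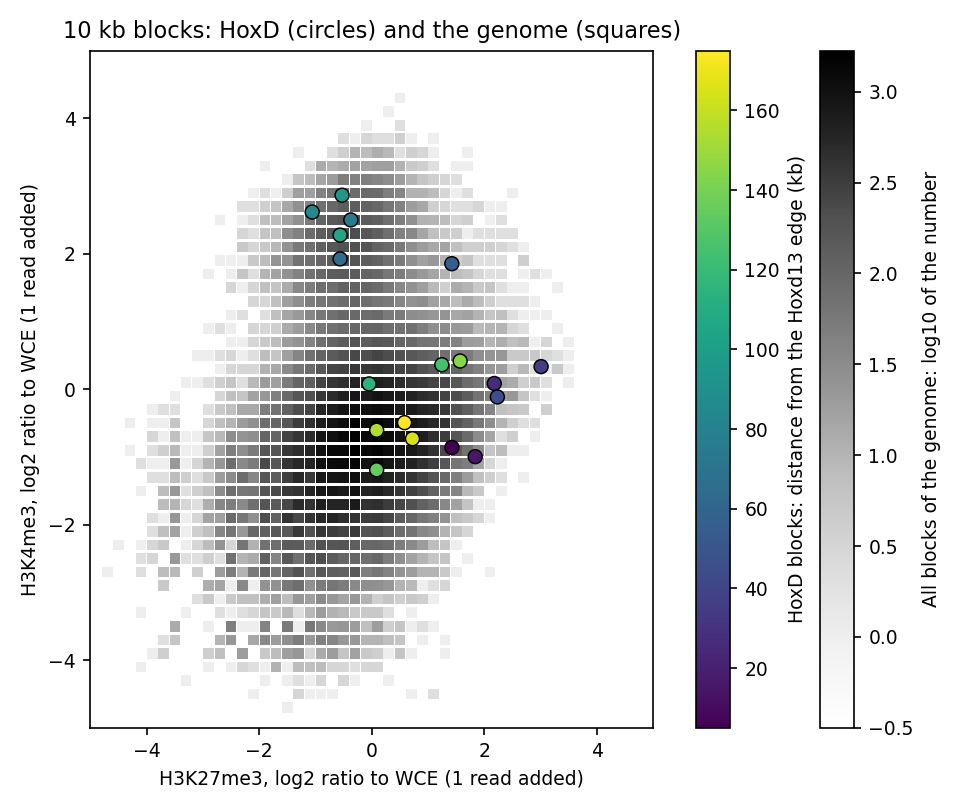
H3K4me3 against H3K27me3, both as log2 ratio to WCE with 1 read added, for 137419 blocks of 10 kb with at least 10 WCE reads (grey squares, darker for more blocks) and for the 18 blocks of the HoxD region (circles, coloured by distance in kb from the Hoxd13 edge). Of the 18, 5 lie at high H3K4me3 and low H3K27me3, 1 has both ratios at or above 1 on this scale and is the block on the first border, and the first 5 lie at high H3K27me3 (log2 1.42 to 3.01). On the Hoxd1 side, the blocks from 74560001 and 74580001 reach a log2 H3K27me3 ratio of 1.24 and 1.57.

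A long stretch of H3K4me3 beside one of H3K27me3 was rare in these libraries. Runs of at least 4 called blocks numbered 83 for H3K4me3 and 263 for H3K27me3, and in 5 places a run of one mark overlapped or adjoined a run of the other. The HoxD region was 1 of them, and its runs shared 1 block. The others lay on chromosome 6 (H3K4me3 from 52080001 to 52170000 and H3K27me3 from 52150001 to 52260000, 2 shared blocks), chromosome 11 (96090001 to 96180000 and 96040001 to 96120000, 3 shared), chromosome 15 (102800001 to 102870000 and 102720001 to 102810000, 1 shared) and chromosome 9 (107390001 to 107450000 and 107310001 to 107390000, 0 shared). The mouse HoxA, HoxB and HoxC clusters are on chromosomes 6, 11 and 15, but these positions were not matched to genes. H3K27me3 lay on the low-coordinate side in all but the place on chromosome 6, and the runs at HoxD, with 6 blocks each, were the shortest H3K27me3 run and, with that on chromosome 9, the shortest H3K4me3 run among the 5.

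Reads with 2 reported positions added little in the HoxD region. They numbered 14 for H3K4me3, 12 for H3K27me3, 4 for H3K9me3 and 8 for WCE, with ratios of 1.69 (0.661 to 4.64), 1.52 (0.572 to 4.29) and 0.708 (0.156 to 2.64). All 3 intervals include 1.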

How the data were processed

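The deposited values are read positions per chromosome, negative for reverse-strand reads. Per the file headers, reads were aligned to mm8 with Bowtie (options e 70, k 2, m 2, n 2 and l 36). The submitters' processing notes name Bowtie too, and its version is not given in the sources used here. A read that matches more than 2 places was dropped, so repeated sequence is not measured. Other values are read counts computed here, not the authors'.

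Reads with 1 position were collapsed to 1 per signed position, moved 60 bp along the strand and counted in 1 kb tiles and 10 kb blocks from position 1. Each mark was tested against WCE with a one-sided exact binomial test, and H3K4me3 against H3K27me3 with a two-sided one, with shares set by totals over the 19 autosomes. Benjamini-Hochberg adjustment ran over all tiles or blocks with at least 1 read of either library, and calls needed an adjusted p under 0.05 and a ratio of at least 2. Borders maximise the multinomial likelihood of the 4 libraries' tile counts, with at least 5 tiles a segment and a penalty of 2 times the log of the reads per added segment. Support ranges are positions within 2 log-likelihood units. The procedures were checked on simulated data. The named tiles are the 5 called tiles of each mark with the highest ratio (1 read added) among those with at least 10 reads, besides all segments, borders and runs of at least 3 tiles. The region, the genes and these rules were chosen with earlier results of these data known. The files hold positions and no peaks, and each of the 4 groups has 1 library. Alternatives changed the treatment of repeated reads, read shift, scaling, thresholds, tile size and grid, control and segmentation settings. Scripts ran under Python 3.11.15 with scipy 1.17.1, numpy 2.4.6 and, for figures, matplotlib 3.10.9.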

Additional observations from a re-analysis of the deposited data

How the results depend on the processing

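The first border stayed at 74498001 in each alternative run for it, and the second at 74550001 except with H3K4me3 and H3K27me3 alone, where it lay at 74551001. Borders numbered 5 instead of 3 with 500 bp tiles and with no read shift, 4 with those 2 libraries alone and 2 with 3 times the penalty. The third border was not found in the last 2 of these, and it lay at 74558001 with all reads kept, inside its support range of 74557001 to 74565001. Borders were not rerun with reads of 2 positions, and no value changed by more than its interval when those were added to the ratios.

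Scaling by the median ratio of 100 kb bins raised log2 ratios by 0.81 (H3K4me3), 0.31 (H3K27me3) and 0.08 (H3K9me3). The ratio over the region became 5.78 for H3K4me3 and 2.30 for H3K27me3. H3K4me3 ratios in the low- and high-coordinate segments moved from below 1 to 1.34 and 1.11, so no loss of H3K4me3 there can be read from them, and H3K27me3 in the H3K4me3 segment was 0.830 (0.669 to 1.03).

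H3K27me3 tiles called, 5 in the main analysis, were 9 with 2 kb and 9 with 4 kb tiles, 0 with 500 bp tiles, 3 at an adjusted p under 0.01, 2 with a local WCE control, 8 with bin scaling and 47 against a uniform background. H3K27me3 blocks, 8, were 5 at an adjusted p under 0.01, 5 at a ratio of at least 3, 5 with the local control and 14 against a uniform background. H3K4me3 tiles, 26, were 12 with 4 kb tiles and 49 against a uniform background. H3K9me3 tiles, 0, were 20 against a uniform background, and H3K9me3 blocks, 1, were 0 with the local control, 2 with bin scaling and 11 against a uniform background. The H3K9me3 block from 74550001 lost its call with the local control (ratio 2.06, adjusted p = 0.481 by the exact binomial test). Tiles with H3K27me3 above H3K4me3, 10, were 5 with 500 bp tiles, 6 at an adjusted p under 0.01 and 3 with bin scaling, and tiles with H3K4me3 above, 31, were 19 with 2 kb and 12 with 4 kb tiles. Larger tiles are fewer in the region, and a uniform background also called 4.04 to 6.04% of tiles genome-wide. No paired analysis was possible because each group has 1 library. Single tiles are limited by depth, a median of 2 WCE reads a tile, and their counts also moved with scaling and control.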
